A study of Mus musculus with 13 samples.

Results

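The change with age in leg muscle of mdx mice was measured by setting the 3 arrays of mdx muscle at day 14 against the 3 arrays at day 7. These 6 arrays were chosen by their titles, out of 13 in the series, and every probe set other than the array maker's controls was used. mdx is a mouse line with a mutation in Dmd, the gene of dystrophin, and is a model of Duchenne muscular dystrophy. The remaining arrays are of control muscle, 3 at day 7, 3 at day 14 and 1 at day 23, and serve only where the mdx change is set beside that of control. Total RNA of leg muscle was hybridised to Affymetrix oligonucleotide arrays, on which each transcript is read by 1 or more probe sets. The sources used here do not give strain, sex, the muscle taken or how the controls relate to the mdx line. Nothing in the labels says whether the arrays of a group are of separate animals, so the p-values reflect only the spread among these samples, which may be technical. In bulk tissue, fewer cells of a type and less RNA per cell cannot be told apart.

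Dystrophin links the actin of the muscle fibre to a complex of membrane proteins and, through it, to the matrix around the fibre. Without it, fibres of older mdx mice go through rounds of necrosis and regeneration. In the first weeks after birth, growing fibres replace embryonic and perinatal myosin heavy chains with adult fast isoforms, and the acetylcholine receptor loses its fetal gamma subunit and gathers at the synapse. Over the same weeks satellite cells begin to leave the cell cycle, and a network of imprinted genes that is active in fetal growth is switched off in many organs.

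Among the genes of the developmental list that fell, the promoters of 2 myosin heavy chains and 2 acetylcholine receptor subunits are shown, because the E-box, the site bound by MyoD and its relatives, is known to act in muscle promoters. Each stretch runs from 250 bases before to 50 bases after the annotated start, from RefSeq on build GRCm38.p6, and the E-box letters CANNTG are in capitals. Myh3 lies at chr11:67078050-67078349 on the plus strand, Myh8 at chr11:67276874-67277173 on the plus strand, Chrng at chr1:87205561-87205860 on the plus strand and Chrna1 at chr2:73580289-73580588 on the minus strand.
Myh3: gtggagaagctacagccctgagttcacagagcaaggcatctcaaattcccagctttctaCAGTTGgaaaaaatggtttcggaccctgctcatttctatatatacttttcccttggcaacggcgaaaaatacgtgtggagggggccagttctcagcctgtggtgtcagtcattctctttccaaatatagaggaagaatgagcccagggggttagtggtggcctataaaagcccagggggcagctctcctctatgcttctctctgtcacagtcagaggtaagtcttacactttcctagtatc
Myh8: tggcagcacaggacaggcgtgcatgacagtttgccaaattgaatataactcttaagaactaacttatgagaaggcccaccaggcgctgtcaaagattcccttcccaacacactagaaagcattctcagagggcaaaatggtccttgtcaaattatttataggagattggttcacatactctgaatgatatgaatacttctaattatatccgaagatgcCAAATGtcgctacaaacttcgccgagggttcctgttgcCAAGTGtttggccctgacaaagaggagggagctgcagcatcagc
Chrng: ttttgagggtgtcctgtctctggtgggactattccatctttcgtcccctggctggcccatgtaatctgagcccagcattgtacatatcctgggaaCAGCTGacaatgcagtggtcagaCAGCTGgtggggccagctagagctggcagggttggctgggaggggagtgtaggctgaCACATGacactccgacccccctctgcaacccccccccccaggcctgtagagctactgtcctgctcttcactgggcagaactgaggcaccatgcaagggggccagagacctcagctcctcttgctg
Chrna1: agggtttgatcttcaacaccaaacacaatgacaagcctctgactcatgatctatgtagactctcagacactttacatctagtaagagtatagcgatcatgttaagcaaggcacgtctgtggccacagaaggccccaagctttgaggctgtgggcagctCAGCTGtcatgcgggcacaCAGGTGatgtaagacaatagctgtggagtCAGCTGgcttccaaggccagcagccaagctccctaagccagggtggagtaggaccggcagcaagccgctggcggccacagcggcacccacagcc
The receptor promoters held 3 CANNTG matches each, of which 2 read CAGCTG, a form of the E-box that is included in CANNTG. Myh8 held 2 matches and Myh3 held 1, and neither held CAGCTG. Both motifs are their own reverse complement, so a match counts once for both strands. Of 32851 promoters of this length, 72.3% held CANNTG at least once, 39.6% at least 2 times and 17.6% at least 3 times, while 16.3% held CAGCTG and 1.90% held it at least 2 times. Of the other developmental genes that fell, Tnni1 and Tnnt2, with 2 annotated starts each, held 2 to 5 CANNTG matches at a start, and Nes and Myl4 held 0. Such matches are letters in this window and were not tested as sites.

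Of 7140 probe sets tested, 1908 passed a limma adjusted p of 0.05 (26.7%), of which 896 rose (12.5%) and 1012 fell (14.2%). At 1 probe set per gene, the brightest, 653 of 5466 genes rose (11.9%) and 818 fell (15%), with a median log2 difference of -0.04 over all genes. The shares of each gene group below are read against these. The 3 arrays of day 14 lay wholly above or wholly below those of day 7 for 3512 of the 7140 probe sets (49.2%), so groups that do not overlap are common here. Values in parentheses below are log2 changes, day 14 minus day 7, with the SE of the limma fit, and rose or fell means that this test was passed. Scaling each array to the same median, in place of quantile normalisation, gave 747 rises and 1460 falls and brought the median over all probe sets to -0.12. Without replicate 1 of mdx at day 7, 1001 probe sets passed, and 995 of these were among the 1908.

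Some markers of skeletal muscle were bright at both ages, and others were not bright on every array or probe set. Ckm, the muscle creatine kinase, read 22878, 20469.8 and 25095 at day 7 and 27746, 28226 and 22019 at day 14. This Ckm probe set is marked by the array maker as a sequence family, and another read 117, 115 and 70.6 at day 7. A probe set of the marker Atp2a1 read 5791, 1259 and 795 at day 7 and 1464, 24615 and 6394 at day 14. The fast troponin Tnnt3 read 40595, 39576 and 35084 and then 28424, 49429 and 49429. Here and below, 49429 is the value that quantile normalisation gives to the brightest probe set of an array, so it marks a rank. Markers of heart and epidermis were in part below and in part above the level needed for testing, a normalised intensity of 621 on at least 3 of 12 arrays. Below it were Myh6, Myl7, Krt5 and Krt14, and above it were the atrial peptide Nppa (912 at day 7 and 1299 at day 14 on average in mdx) and the keratins Krt10 (952 and 655) and Krt1 (188 and 364). Arrays of mdx at the same age correlated at 0.946 to 0.958 on average at day 7 and at 0.924 to 0.934 at day 14. On 3 arrays, replicate 1 of mdx at day 14, replicate 3 of mdx at day 7 and replicate 2 of control at day 7, at least 3 of the 50 brightest probe sets read under 0.5 of their median over the 12 arrays. Acta1, the skeletal actin, read 107, 19835 and 24063 at day 14, with replicate 1 the lowest, and 809.6, 2327 and 747 at day 7. Without these 3 arrays 892 probe sets passed, and 803 of them were among the 1908. The first principal component, 53.0% of the variance, set all day 14 arrays (20.7 to 62.6) apart from day 7 (-34.8 to -23.8) and from the day 23 control (-15.1), so age and whatever else marks the day 14 arrays cannot be told apart. In the deposited values, the median of the antisense control probe sets was 651 to 1047 on the day 14 arrays. It was 293 to 462 at day 7 and 243 at day 23. The median of the spike-in controls was 2946 to 7780 at day 14, 2091 to 3544 at day 7 and 3159 at day 23. The part of these technical differences in the day 14 changes was not tested.

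Isoforms of the fetal and newborn fibre fell in mdx muscle between day 7 and day 14. Of 14 genes tested, 0 rose and 8 fell (8 had an unadjusted p under 0.05 in limma), with a median log2 change of -0.71. Myh8, the perinatal myosin heavy chain, read 49429, 27080.0 and 40062 at day 7 and 4902, 8110.0 and 4078 at day 14, a log2 change of -2.78 at SE 0.35 and limma adjusted p = 0.000382. Myh3, the embryonic heavy chain, read 4970.1, 4149 and 4466 and then 883, 858 and 1143, a log2 change of -2.17 at SE 0.16 and limma adjusted p = 1.87e-05. For both genes every day 14 array lay below every day 7 array. The array maker marked this Myh8 probe set r, for relaxed probe rules. Without probe sets marked as sequence families or as less specific, 7 genes of the list fell and 0 rose.

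Myl4, the embryonic and atrial light chain, fell from 7659, 7178 and 8786 to 2356, 2228 and 2735, a log2 change of -1.67 at SE 0.23 and limma adjusted p = 0.00057. A dimmer probe set of Myl4 rose, from 2079.5 ± 249 (SD, n = 3) to 3462 ± 222 (log2 0.72, limma adjusted p = 0.0271). Tnnt2, the cardiac troponin T that fetal skeletal muscle also makes, fell from 1445, 1248 and 1305 to 508, 932 and 572 (-0.97, SE 0.22), and replicate 2 at day 14 was the highest of its group. Nes, the intermediate filament nestin of immature fibres, went from 8714, 8319 and 11971 to 5884, 4947 and 6049.6 (-0.76, SE 0.18), again without overlap. Actc1, the cardiac actin of fetal muscle, read 43868 and 43853 on average and did not pass. Without the 3 arrays with low bright probe sets 4 of the 14 passed, Myh3, Myh8, Myl4 and Tnni1, at log2 differences of -2.13, -2.66, -1.56 and -0.62.

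**Figure D1:**
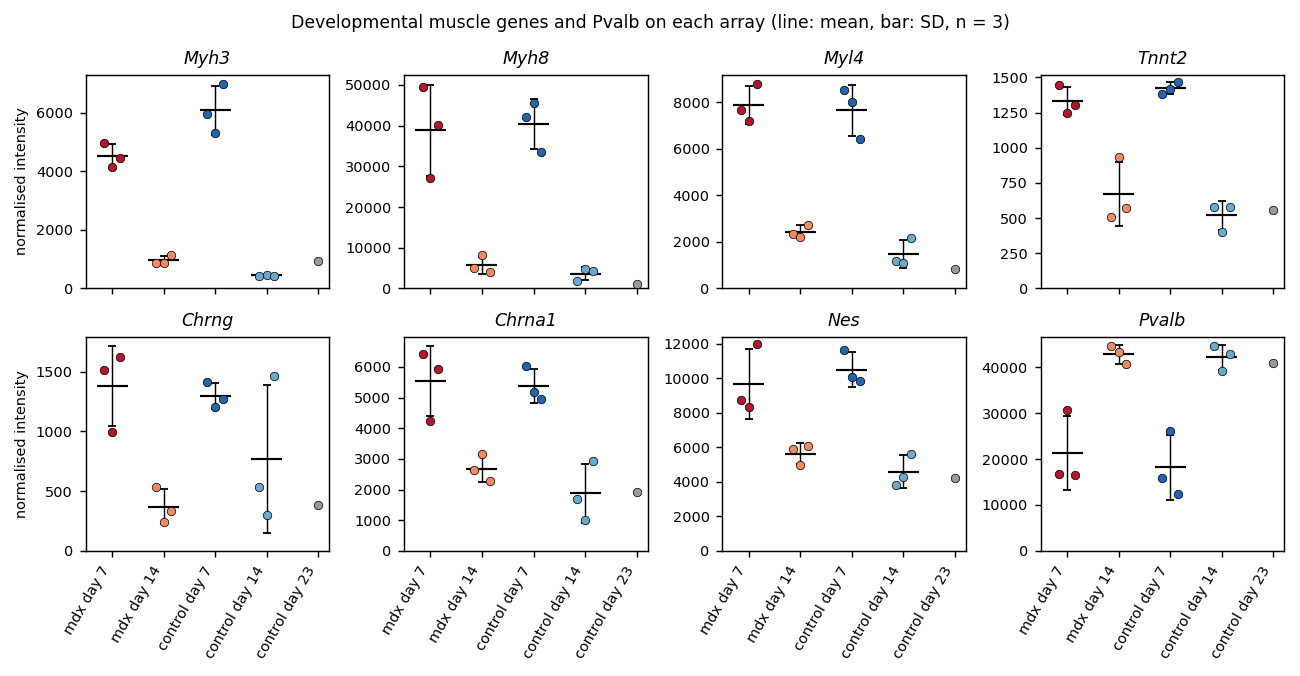
Normalised intensity (vertical axes, linear) of 8 genes on each array of mdx at day 7 and day 14, control at day 7 and day 14 and control at day 23. Points are arrays, horizontal lines means and bars SD (n = 3, a single array at day 23). Myh3, Myh8, Myl4, Tnnt2, Chrng, Chrna1 and Nes were lower on every mdx array at day 14 than on any at day 7, and Pvalb was higher.

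At the neuromuscular junction the fetal gamma and the shared alpha subunit of the receptor fell, with the synaptic esterase. Of 12 genes tested, 0 rose and 4 fell (5 had an unadjusted p under 0.05 in limma), with a median of -0.59. Chrng, the fetal gamma subunit of the acetylcholine receptor, read 1512, 997 and 1623 at day 7 and 535, 243 and 334 at day 14, a log2 change of -1.76 at SE 0.43 and limma adjusted p = 0.0111. A dimmer Chrng probe set did not pass (-0.31, limma adjusted p = 0.435). Chrna1, the alpha subunit, read 6435, 4249 and 5936 and then 2627, 3152 and 2273, a log2 change of -1.02 at SE 0.29 and limma adjusted p = 0.024. Both subunits were lower on all 3 day 14 arrays.

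Ache, the enzyme that clears acetylcholine, fell from 3892, 3722 and 3246 to 1431, 979 and 1738 (-1.38, SE 0.31). Agrn, the gene of agrin, fell from 2419 ± 162 to 1471 ± 272 (-0.71, SE 0.18), and the cells that made its RNA are not known here. Chrne, the adult epsilon subunit, read 1306, 1250.5 and 1217 at day 7 and 1353, 1104 and 1219.7 at day 14, which overlap, and its log2 difference of -0.04 (SE 0.19) did not pass. Chrnb1, the beta subunit, read 5843 and 5737 on average and did not pass either. Leaving out the 3 arrays with low bright probe sets kept 1 of the 12 past the test, Ache, at a median of -0.63.

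Genes of adult fast fibres gave a result that rested on a single array. Of 15 genes tested, 1 rose and 1 fell, at a median of 0.32, namely Pvalb and Tpm1, a tropomyosin. The Pvalb probe set is marked as a sequence family by the array maker. Pvalb, the calcium buffer parvalbumin, went from 16752, 30607 and 16512 to 44515, 43294 and 40595, a log2 change of 1.07 at SE 0.27 and limma adjusted p = 0.0145. Without replicate 1 of mdx at day 14, 6 of the 15 rose and 0 fell, and the median was 1.26. Those that passed then were Acta1 (4.20), Casq1, the calcium store calsequestrin (3.71), Mylpf, the fast regulatory light chain (1.42), Actn3, the fast alpha-actinin (1.26), Pvalb (1.04) and Tnni2, the fast troponin I (0.87), names given after the values were seen.

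Mylpf read 1754, 17146 and 18767 on the day 14 arrays, with replicate 1 below and the other 2 above the day 7 values of 6418, 6459 and 7121. Myh4, the adult fast 2B heavy chain, read 8500.0, 13727 and 4293 at day 7 and 185, 32644 and 23786 at day 14 (limma adjusted p = 0.84), with replicate 1 again the lowest. A second Myh4 probe set read 547 and 995 on average and did not pass. Myh1, the 2X heavy chain, read 40922, 43294 and 40922 and then 30161, 43794 and 45553, a log2 change of -0.09 at SE 0.17 and limma adjusted p = 0.727. It was bright at both ages, and its groups overlap.

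Slow fibre genes moved in both directions. Of 13 genes tested, 3 rose and 2 fell, at a median of -0.25. Mb, the oxygen store myoglobin, rose from 5319.7, 5902 and 4204 to 11016, 9172 and 13941 (1.13, SE 0.30) without overlap, and Ankrd2, a stretch-responsive ankyrin repeat protein, rose from 2576 ± 363 to 4597 ± 756 (0.82, SE 0.27). Actn2, the alpha-actinin of the Z disc, read 80.3, 328 and 108 and then 207, 1535 and 1389, and it passed (2.02, SE 0.62) although replicate 1 at day 14 lay within the day 7 range. Tnni1, the slow troponin I, fell from 19316, 19429 and 22163 to 16287, 11002 and 14480.2 (-0.56, SE 0.17), and Atp2a2, the slow calcium pump, from 5593 ± 1014 to 3170.4 ± 855 (-0.82, SE 0.25). The slow heavy chain Myh7 read 27404 and 20743 on average and did not pass (-0.44, SE 0.22), nor did its dimmer probe set (0.15, SE 0.39). On the 9 arrays without low bright probe sets 1 of the 13 rose and 1 fell. When replicate 3 of mdx at day 7 alone was left out, 0 rose and 0 fell. The counts were also 0 and 0 without replicate 3 of mdx at day 14 alone.

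Among proteins that hold the sarcomere together, desmin and 3 others rose. Of 12 genes tested, 4 rose and 1 fell, at a median of 0.34. Des, the intermediate filament desmin, rose from 2490.1, 3305 and 2774 to 6747, 5104 and 6474, a log2 change of 1.08 at SE 0.16 and limma adjusted p = 0.000921. Mybph, a myosin-binding protein, rose from 8093, 10700.3 and 8399 to 19000.5, 17869.9 and 18887 (1.04, SE 0.15). In both, the lowest day 14 array lay above the highest day 7 array.

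Capza2, an actin capping subunit (0.78, SE 0.21), and Pdlim3, a Z-disc protein (0.76, SE 0.22), rose as well. The brighter probe set of Capzb, the other capping subunit, fell (-0.69, SE 0.23) and a dimmer one rose (0.79, SE 0.14). In excitation-contraction coupling, 1 of 9 genes rose and 1 fell, at a median of 0.54. Without replicate 1 of mdx at day 14 the counts were 3 and 0, and without replicate 2 at day 14 the median was 0.21. The genes that passed were Pvalb and Cacng1, the gamma subunit of the muscle calcium channel, which fell from 18275, 16926 and 17276 to 10006, 10856 and 13002 (-0.64, SE 0.17). Without probe sets marked as sequence families or as less specific, as that of Pvalb is, 0 genes of this list rose and 1 fell. The same 9 arrays gave 2 rises and 2 falls among the sarcomere genes.

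Several members of the dystrophin complex fell. Of 11 genes tested, 1 rose and 3 fell, at a median of -0.42. The Dmd probe set, whose place relative to the mutation the sources used here do not give, was dim. It read 816, 464 and 583 at day 7 and 353, 314 and 308 at day 14, a log2 change of -0.79 at SE 0.30 and limma adjusted p = 0.0658, and did not pass although the groups do not overlap. On the control arrays Dmd read 822, 850.1 and 865 and then 1149.6, 476 and 978, which overlap. The test of whether the mdx and control changes differ gave -0.74 (SE 0.42, limma adjusted p = 0.583).

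Sgca, alpha-sarcoglycan, fell from 8879.9, 9767 and 8476 to 5275, 4853 and 6261 (-0.73, SE 0.19), while a second Sgca probe set read 7286 and 6722 and did not pass. Sgce, epsilon-sarcoglycan, fell from 3619 ± 629 to 2116 ± 379 (-0.76, SE 0.19), and Sspn, sarcospan, from 12282 ± 2118 to 8199.7 ± 461 (-0.57, SE 0.17). Itga7, the laminin-binding integrin that acts beside the complex, rose from 2341 ± 59.8 to 3661 ± 771 (0.61, SE 0.19) on a probe set of a sequence family, and its other probe set did not pass (-0.24, SE 0.14). Utrn, the relative of dystrophin, read 953 and 566 and did not pass (-0.71, SE 0.37, limma adjusted p = 0.169). On the 9 arrays 2 of the 11 fell and 0 rose, with 0 rising and 1 falling when replicate 1 of mdx at day 14 alone was left out. Without replicate 2 of mdx at day 7 alone, 0 rose and 0 fell. Without replicate 1 of mdx at day 7 alone, 0 rose and 1 fell.

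Regulators of the muscle lineage changed in both directions. Of 22 genes tested, 4 rose and 5 fell, at a median of -0.15. Fgfr4, a fibroblast growth factor receptor of muscle precursors, read 1753, 1257 and 1497 at day 7 and 140.0, 171 and 176 at day 14, a log2 change of -2.79 at SE 0.23 and limma adjusted p = 3.07e-05. Myod1, the determination factor MyoD, fell from 5056, 5450.2 and 5407 to 3089, 2993 and 4104 (-0.65, SE 0.16). Both were lower on every day 14 array.

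Vcam1, an adhesion protein of satellite cells and endothelium, fell (-0.86, SE 0.23), as did Notch1, a receptor that keeps satellite cells undifferentiated, from 1714, 1696 and 1898 to 1312, 793 and 296 (-1.29, SE 0.41). Eya1, a cofactor of homeobox proteins, rose from 1367, 1278 and 1637 to 3369, 2632 and 3103 (1.06, SE 0.15), and Sdc4, a heparan sulphate proteoglycan of satellite cells, from 1877 ± 332 to 3553 ± 364 (0.91, SE 0.17). The transcription factors Mef2b (1.28, SE 0.33) and Tead4 (0.75, SE 0.23) rose, and Id3, an inhibitor of MyoD partners, fell as well (-0.58, SE 0.20). The differentiation factor Myog read 4853, 5747 and 4861 and then 3318, 4819 and 6659, which overlap (-0.11, SE 0.22). Leaving out the 3 arrays gave 3 rises and 2 falls.

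Imprinted genes of fetal growth fell. Of 14 genes tested, 0 rose and 8 fell at the brightest probe set (11 had an unadjusted p under 0.05 in limma), at a median of -0.84, which was -0.54 with the mean over the probe sets of each gene. Dlk1, a membrane protein of precursor cells related to Notch ligands, read 26820.4, 35471 and 31367 at day 7 and 6659, 8500.0 and 8466 at day 14, a log2 change of -1.98 at SE 0.22 and limma adjusted p = 0.000202. Ndn, the growth suppressor necdin, read 21247, 14121 and 23486 and then 5039, 5583 and 5242, a log2 change of -1.85 at SE 0.20 and limma adjusted p = 0.00017. Plagl1, a zinc finger regulator of this network, read 6103, 3975 and 8360.4 and then 1494, 1588 and 933, a log2 change of -2.12 at SE 0.29 and limma adjusted p = 0.000578. For all 3 the groups were apart, and replicate 3 at day 14 was the lowest for Plagl1. Second probe sets of Ndn and Plagl1 fell too (-1.99, SE 0.22 and -1.79, SE 0.21).

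The other members that fell were Mest, Meg3, Peg3, Sgce and Slc38a4. Mest, from a mesoderm-specific transcript, fell from 9861, 7809 and 15139 to 3803, 3768 and 2326 (-1.69, SE 0.27), and Peg3, a zinc finger protein, from 21776, 16711 and 29993 to 11446, 12015 and 11360.1 (-0.93, SE 0.20). Meg3, a long noncoding RNA from the Dlk1 locus, was read by 2 probe sets that went opposite ways. The one brighter over the 12 arrays fell from 26878, 28722 and 23129 to 10558, 8938 and 8006 (-1.51, SE 0.23), and the other rose from 227, 545 and 985 to 12081, 16995 and 19671 (4.81, SE 0.59), so no single direction is given for Meg3. On the 9 arrays 6 of the 14 fell and 2 rose, the growth factor Igf2 and the cell cycle inhibitor Cdkn1c.

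**Figure D2:**
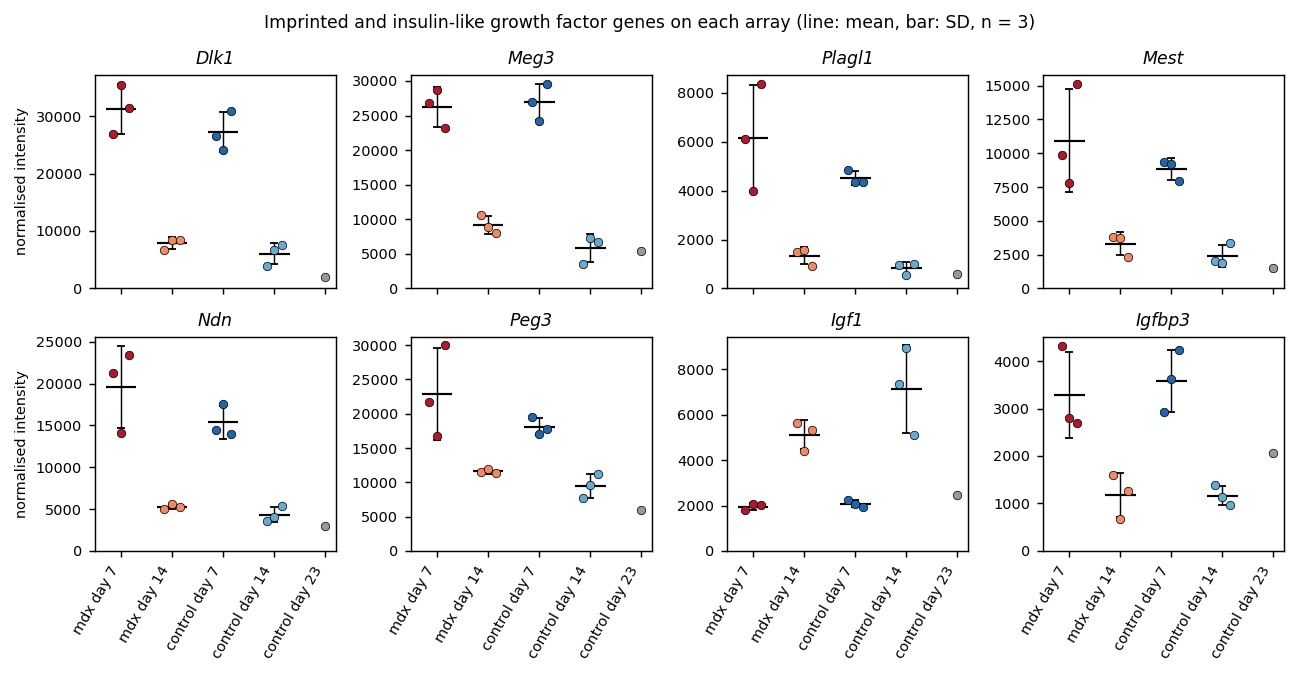
Normalised intensity (vertical axes, linear) of 6 imprinted genes, Igf1 and Igfbp3 on each array, for mdx at day 7 and day 14, control at day 7 and day 14 and control at day 23, each gene at its brightest probe set. Points are arrays, lines means and bars SD (n = 3, a single array at day 23). The imprinted genes and Igfbp3 were lower on every mdx array at day 14 than at day 7, and this Igf1 probe set was higher.

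In the insulin-like growth factor pathway, binding proteins fell. Of 13 genes tested, 1 rose and 6 fell, at a median of -0.59, or -0.35 with the mean over each gene's probe sets. Igfbp3 fell from 4324, 2809.6 and 2701 to 1589, 667 and 1264 (-1.48, SE 0.28), and its second probe set fell as well (-2.60, SE 0.47). Igfbp2 fell from 1373 ± 248 to 476 ± 209.6 (-1.47, SE 0.30) and Igfbp4 from 4469 ± 889.9 to 1966 ± 509 (-1.17, SE 0.23). These proteins carry the growth factors outside the cell.

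Igf1, the growth factor, rose on its brighter probe set from 1804, 2062 and 2003 to 5626, 4409 and 5335, a log2 change of 1.36 at SE 0.19 and limma adjusted p = 0.000585, and fell on another, from 1596 ± 325 to 842 ± 218 (-0.88, SE 0.23). The direction for Igf1 thus depends on the probe set. Igf2, the fetal growth factor, read 1116, 1185 and 646 at day 7 and 544, 32480.2 and 12716 at day 14, a log2 change of 2.64 at SE 1.05 and limma adjusted p = 0.0782, and replicate 1 at day 14 lay below the day 7 values. Without that array its log2 difference was 4.33 (limma adjusted p = 0.000653). Akt1, a kinase downstream of the receptor, fell from 6289, 6079.9 and 5813 to 3351, 3343 and 3367 (-0.84, SE 0.12). On the 9 arrays 3 of the 13 fell and 2 rose.

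Genes of the extracellular matrix fell, among them collagens, proteoglycans and microfibril proteins. Of 46 genes tested, 3 rose and 21 fell, at a median of -0.49. Mfap2, a protein of elastic microfibrils, read 7705, 7221 and 7475 at day 7 and 1889, 1645 and 1815 at day 14, a log2 change of -2.03 at SE 0.13 and limma adjusted p = 9.03e-06. Col6a2, a chain of the collagen that surrounds fibres, read 17744, 14445 and 17817 and then 4666, 6012 and 6184, a log2 change of -1.56 at SE 0.16 and limma adjusted p = 0.000129. The groups of both lay well apart. Bgn, the proteoglycan biglycan, fell on its brighter probe set from 29506, 25095 and 29600.1 to 9928, 9012 and 11505 (-1.47, SE 0.16) and rose on a sequence-family probe set (0.60, SE 0.17).

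Vcan, the proteoglycan versican of immature matrix, fell from 4516, 3682 and 4870.1 to 2163, 2315 and 1841 (-1.02, SE 0.14). Serpinh1, the collagen chaperone counted here and among chaperones, fell from 18815 ± 2439 to 9797 ± 1744 (-0.94, SE 0.17). Col4a1, a basement membrane collagen, rose from 18049.7, 17516 and 16592 to 29070.4, 25358 and 25358 (0.61, SE 0.20), as did Loxl1, which crosslinks elastin (0.78, SE 0.19), and Ccn2, a matricellular growth factor, whose groups overlap (0.61, SE 0.21). The fibrillar collagen Col1a1 read 6854, 22621 and 1473 and then 20556, 37002 and 34354, spread widely at day 7, and did not pass (2.26, SE 1.19). Without low bright arrays 17 of the 46 matrix genes fell and 0 rose, at a median of -0.62.

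Cell cycle genes fell. Of 38 genes tested, 0 rose and 16 fell (19 had an unadjusted p under 0.05 in limma), at a median of -0.59. Cks2 and Cks1b, small partners of cyclin-dependent kinases, read 1760.3, 1701 and 1678 and 2768, 2639.5 and 2711 at day 7. At day 14 Cks2 read 435, 226 and 452 and Cks1b 747, 807 and 601, with log2 differences of -2.08 (SE 0.28) and -1.83 (SE 0.30). Cdk1, the mitotic kinase, fell from 2891, 2119 and 2036 to 966, 456 and 881, a log2 change of -1.58 at SE 0.28 and limma adjusted p = 0.0023. Hmgb2, a chromatin protein of dividing cells, fell from 1043 ± 101 to 412 ± 65.4 (-1.23, SE 0.20). In each of these 4 genes all day 14 arrays lay below all day 7 arrays. Leaving out the 3 arrays, 11 of the 38 fell, at a median of -0.60.

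Genes of translation split. Of 24 genes tested, 3 rose and 5 fell, at a median of 0.11. Eef1a1, an elongation factor, rose from 10708, 11846 and 8194 to 29187, 36543 and 32480.2 (1.68, SE 0.24), and the helicases Eif4a2 and Eif4a1 rose too (log2 0.88, SE 0.20 and 0.72, SE 0.18). Ribosomal proteins Rpl13a and Rps19 fell (-0.76, SE 0.15 and -1.20, SE 0.26), and so did the nucleolar proteins Ncl and Npm1 (-0.58, SE 0.15 and -0.61, SE 0.16). The ribosomal protein genes have many near-identical pseudogenes, so their probe sets may read more than 1 locus. The median over the list was -0.15 without probe sets that the array maker marked as sequence families or as less specific.

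Among mitochondrial genes that passed, rises outnumbered falls, while of all genes 11.9% rose and 15% fell. Of 56 genes tested, 9 rose and 2 fell in oxidative phosphorylation, where 19.6% passed against 26.9% of all genes, at a median of 0.12. In the tricarboxylic acid cycle list 4 of 20 rose and 2 fell (30% passed), at a median of 0.20. Cycs, cytochrome c, rose from 4155, 4229 and 3267 to 12692, 10076 and 6431, a log2 change of 1.27 at SE 0.29 and limma adjusted p = 0.0081. Cox7a1, the muscle isoform of a cytochrome oxidase subunit, rose from 7221, 8754 and 3994 to 18628, 13255 and 13544, a log2 change of 1.23 at SE 0.28 and limma adjusted p = 0.008. Replicate 3 was the lowest array of its group for Cycs at day 14 and for Cox7a1 at day 7.

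The ATP synthase subunits Atp5k and Atp5pb rose (0.98, SE 0.16 and 1.39, SE 0.32), while Atp5e fell (-0.66, SE 0.23), as did Cox6a1, the non-muscle isoform of another oxidase subunit, from 18810.3, 16479 and 14986 to 14069, 9914 and 9730.3 (-0.59, SE 0.18). Idh3a, the NAD-dependent isocitrate dehydrogenase of the cycle, rose from 5018, 6295 and 5030.5 to 9875, 10412 and 8992 (0.84, SE 0.14), and Got2, Mdh1 and Sdha rose (1.61, SE 0.42, 0.64, SE 0.21 and 0.62, SE 0.21). Idh2, the NADP-dependent form, fell from 16650.0, 12642 and 11993 to 6098, 4094 and 5198 (-1.42, SE 0.22), and Suclg1, a ligase subunit, fell too (-0.54, SE 0.16). With arrays scaled to the same median, 5 oxidative phosphorylation genes rose and 3 fell, and on the 9 arrays 5 rose and 2 fell. The falls of Atp5e and Cox6a1 were on probe sets that the array maker marked as sequence families or as less specific. Without probe sets so marked, 11 genes of this list rose and 0 fell.

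Fuel genes changed in a few members. In fatty acid oxidation 4 of 22 genes rose and 1 fell, at a median of 0.17, which was -0.02 with arrays scaled to the same median. Pdk4, the kinase that holds pyruvate back from oxidation, rose from 11113, 11241 and 13613 to 38262, 24681 and 27746, a log2 change of 1.31 at SE 0.17 and limma adjusted p = 0.000489. Ucp3, a muscle uncoupling protein, rose from 2424, 2483 and 2097 to 4076, 3953 and 4239.7, a log2 change of 0.80 at SE 0.12 and limma adjusted p = 0.000776. Acads, a short-chain dehydrogenase, rose on one probe set (1.19, SE 0.14) but not on the other (-0.36, SE 0.19), Etfa, an electron carrier subunit, rose (0.75, SE 0.19), and Crat, a carnitine transferase, fell (-0.72, SE 0.24).

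In glycolysis and glycogen 3 of 23 genes rose and 3 fell, at a median of 0.18. Phka1 and Phkg1, subunits of phosphorylase kinase, rose (1.18, SE 0.31 and 0.70, SE 0.23), as did Ugp2, which makes the glycogen precursor (0.82, SE 0.16). Hk1, a hexokinase found in most tissues, fell from 14541, 24183 and 16926 to 9157, 6691 and 5636 (-1.36, SE 0.25). Fbp2, the muscle fructose bisphosphatase, fell from 8812, 4889 and 7112 to 1663, 2968 and 2512 (-1.52, SE 0.24), and Ldhb, the heart-type lactate dehydrogenase, from 1817 ± 331 to 861 ± 173 (-1.03, SE 0.20). Without replicate 1 of mdx at day 14, 5 rose and 3 fell.

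Genes against oxidative stress changed in both directions. Of 17 genes tested, 6 rose and 3 fell, at a median of 0.36. Without probe sets marked as sequence families or as less specific, 4 rose and 4 fell at a median of 0.12, and with arrays scaled to the same median 4 rose and 3 fell at 0.20. Sod2, the mitochondrial superoxide dismutase, rose from 2436, 3662 and 3081 to 4661, 5772 and 6425 (0.87, SE 0.21), and Gpx1, a glutathione peroxidase, from 1799 ± 200.3 to 3339.9 ± 285 (0.87, SE 0.17). Cat, catalase, rose on both probe sets (1.11, SE 0.24 and 0.44, SE 0.14). The cytosolic dismutase Sod1 fell from 11549, 9592 and 11505 to 8110.0, 5806 and 5603 (-0.75, SE 0.19), with Txn1, thioredoxin (-0.79, SE 0.17), and Gpx3, a secreted peroxidase (-0.62, SE 0.20). Mt2, a metallothionein, rose from 5035, 4943 and 4461 to 6151, 8726 and 8347 (0.66, SE 0.18). The 9 arrays without low bright probe sets left fewer calls: 3 of the 17 rose and 2 fell.

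Immediate early genes, which respond within minutes to stimuli, gave 5 rises and 2 falls among 17 tested, at a median of -0.08. Nr4a1, a nuclear receptor, rose from 2417, 4826 and 3034 to 10217, 9952 and 5758 (1.33, SE 0.32), Dusp1, a phosphatase of MAP kinases, from 4190.0, 6901 and 6659 to 11220.2, 9730.3 and 10958 (0.87, SE 0.21) and Gadd45g, a growth arrest gene, from 1014 ± 238 to 2579 ± 538 (1.30, SE 0.24). Jund, an AP-1 subunit, rose from 6962, 12390.0 and 2966 to 19316, 19193 and 25176 (1.72, SE 0.48), and its day 7 values were widely spread. Ccn1, a matricellular protein, and Ier3 fell (-0.89, SE 0.28 and -0.65, SE 0.22). Leaving out the 3 arrays gave 2 rises and 0 falls.

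Among chaperones 2 of 16 rose and 1 fell, at a median of 0.07 (-0.02 with arrays scaled to the same median). Canx, the chaperone calnexin, rose from 971, 707 and 1601 to 2551, 2785 and 3127 (1.39, SE 0.23), and the stress-induced Hspa1a rose with overlapping groups (0.92, SE 0.29). In the circadian list 1 of 13 rose, Per3 (0.64, SE 0.20), and 0 fell by limma (4 genes had an unadjusted p under 0.05), at a median of 0.10 (-0.01 with the same-median scaling). The output genes Usp2 and Tef read 0.32 (SE 0.15) and -0.62 (SE 0.27) as log2 differences and did not pass. In proteolysis and atrophy 1 of 18 rose, Bnip3, a mitophagy receptor (0.82, SE 0.15), and 1 fell, the calpain Capn2 (-0.83, SE 0.21), at a median of -0.20.

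In genes of vessels and nerve, falls outnumbered rises. In the endothelial list 1 of 14 rose and 5 fell, at a median of -0.27. Nos3, the endothelial nitric oxide synthase, fell from 1174, 1152 and 692 to 144, 154 and 198 (-2.20, SE 0.30), and the junction protein Cldn5 from 4081, 4453 and 3869 to 2236, 2231 and 2540.4 (-0.81, SE 0.14), with Cd34 (-0.72, SE 0.14), a sialomucin also found on satellite cells, and Eng (-0.71, SE 0.18), a co-receptor for growth factors. Pecam1, an adhesion molecule that defines endothelium, rose from 638, 722 and 1114 to 2053, 2225 and 2385 (1.40, SE 0.32), while Cdh5, the endothelial cadherin, read 6702 and 7063 on average and did not pass. The markers of endothelium thus did not move one way.

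In smooth muscle and pericytes 4 of 8 fell and 1 rose, at a median of -0.58. The falls were Smtn, smoothelin, from 7454, 6273 and 4986 to 1645, 1412 and 2329 (-1.77, SE 0.42), Pdgfrb, the pericyte growth factor receptor (-1.12, SE 0.26), Myh11, the smooth muscle heavy chain (-1.07, SE 0.24), and Tagln, transgelin (-0.80, SE 0.13), and the rise was Des, which is chiefly a gene of skeletal fibres. The smooth muscle actin Acta2 read 11399, 12754 and 10086 at day 7 and 16360, 15114 and 12672 at day 14, which overlap. It did not pass (0.36, limma adjusted p = 0.0776), so the markers of smooth muscle did not all move one way. In nerve and Schwann cells 4 of 9 fell and 1 rose, at a median of 0.03 (-0.06 with the same-median scaling). Pmp22, a myelin protein, fell from 18328, 18484 and 18810.3 to 12015, 7611 and 8633 (limma adjusted p = 0.00187), and Gap43, a protein of growing axons, from 920.0 ± 134 to 352 ± 44.6 (-1.24, SE 0.26). Mal fell (-0.61, SE 0.20), Mbp fell on its brighter probe set (-0.79, SE 0.20) and rose on a dim one (0.78, SE 0.26), and the glial filament Gfap rose from a low level (1.35, SE 0.29).

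On the 9 arrays without low bright probe sets, 4 endothelial, 2 smooth muscle and 3 nerve genes fell, with 1 rise in each list. The summed level of the endothelial list read 38581 to 40002 over the day 7 arrays and 29796 to 32131 over the day 14 arrays, that of smooth muscle 31985 to 36180.0 and 30959 to 34096, and that of nerve 36158 to 41359 and 26691 to 32845. The part of these cell types in the changes of other lists was not tested.

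Immune lists held calls in both directions. Among macrophage and myeloid genes 2 of 15 rose and 2 fell, 26.7% in all against 26.9% of all genes, at a median of 0.08 (-0.08 with the same-median scaling). C1qb, a complement component made by macrophages, rose from 2922, 1799 and 1985 to 11292, 8490.4 and 6303 (1.92, SE 0.23), but its other probe set did not pass (-0.78, SE 0.60). Mpeg1, the macrophage perforin, rose from 547, 370.5 and 546 to 1749.6, 1258 and 1647 (1.56, SE 0.23). C1qa, the partner of C1qb, and Tyrobp, a signalling adaptor, fell (-0.47, SE 0.16 and -0.81, SE 0.23). The defining marker Cd68 read 809, 1117 and 725 and then 914, 710.4 and 942, which overlap, and Adgre1, the F4/80 antigen, was dim at 341 and 223.

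Of 7 T and B lymphocyte genes, 1 rose and 0 fell by limma (3 at an unadjusted p under 0.05), at a median of 0.69. The rise was Cd28, a T cell costimulator, from 229, 274 and 166 to 744, 714 and 492 (1.32, SE 0.29), while Cd79a, a B cell receptor chain, read 0.80 (SE 0.32) and Ighm, the IgM heavy chain, 0.43 (SE 0.31) on the log2 scale and neither passed. In antigen presentation 1 of 10 rose, H2-Eb1 (0.72, SE 0.24), and 1 fell, H2-DMa (-1.08, SE 0.20), both of class II, at a median of 0.12. Of 9 chemokine and cytokine genes 2 fell and 0 rose by limma (2 at an unadjusted p under 0.05), at a median of 0.11 (-0.01 with the same-median scaling). Tgfb1 fell from 741, 485 and 217 to 55.5, 48.8 and 159.9 (-1.80, SE 0.47) and Cxcl9 from 800.4, 647 and 778 to 235, 214 and 321 (-1.34, SE 0.38), both to dim levels.

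Of 6 complement genes 0 rose and 0 fell by limma, and 0 had an unadjusted p under 0.05, at a median of 0.26. Serping1, the C1 inhibitor, read -0.04 (SE 0.18) and C1ra 0.44 (SE 0.22) on the log2 scale. In the interferon list 1 of 7 fell, Ifitm3 (-0.50, SE 0.17), at a median of 0.03, and Gbp3 did not pass (0.51, SE 0.26). Of 10 neutrophil and marrow genes 0 rose and 0 fell by limma, 0 at an unadjusted p under 0.05, at a median of 0.43. The granule peptide Camp read 406, 2519.9 and 659.6 at day 7 and 1093, 971 and 2320.1 at day 14, with replicate 2 at day 7 the highest, and the calcium-binding S100a8 read 464, 2419 and 378 and then 1851, 299 and 1975. On the control arrays 7 of these 10 genes fell and 2 rose, where 27.7% of all genes fell and 19.9% rose, at a median of -1.83, and Camp read 3679, 5808 and 7583 and then 2119.6, 1226 and 1925. The difference between the mdx and control changes did not pass for Camp (2.21, SE 0.75, limma adjusted p = 0.429).

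In the erythroid list 1 of 11 rose, the dim blood group gene Rhd (1.65, SE 0.44), and 0 fell by limma (1 at an unadjusted p under 0.05), at a median of 0.18. The globins Hba-a1 and Hbb-b2 read -0.13 (SE 0.29) and -0.15 (SE 0.21) on the log2 scale and did not pass. In adipocytes 5 of 17 fell and 1 rose, at a median of -0.31. Agt, angiotensinogen, fell from 1688, 1059 and 1500.3 to 421, 668 and 562 (-1.27, SE 0.28), and the lipid enzymes Lipe, Fasn and Acly fell (-0.97, SE 0.29, -0.82, SE 0.22 and -0.44, SE 0.13), while the lipase Pnpla2 rose (0.63, SE 0.21). Without replicate 2 of mdx at day 14 the adipocyte median was -0.01 with 1 fall, and without replicate 2 at day 7 it was -0.03 with 2 falls. Leaving out the other mdx arrays in turn left 1 to 3 falls, with 1 without replicate 3 at day 14 and 2 without replicate 1 at day 7. The defining markers Adipoq and Fabp4 did not pass (-0.49, SE 0.54 and 0.28, SE 0.17).

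In bone and cartilage 3 of 13 rose and 1 fell, at a median of 0.20. That median was -0.08 without replicate 1 of mdx at day 7 and -0.10 without replicate 3 at day 14. In control 2 rose and 7 fell, at a median of -1.28, and the difference between the genotypes was not tested for the list. Chad, a cartilage matrix protein, rose from 698, 799.6 and 778 to 1672, 2158 and 2137 (1.31, SE 0.30), Col9a1 and Col9a2, chains of a cartilage collagen, rose (1.05, SE 0.33 and 0.59, SE 0.18), and Col11a2, of another, fell (-1.24, SE 0.30). In tendon 1 of 3 rose, the transcription factor Scx, from 5030.5, 4509 and 3674 to 9172, 7971 and 6683 (0.84, SE 0.26), and Fmod, fibromodulin, did not pass (-0.49, SE 0.19). Of 9 epidermis genes 0 rose and 0 fell by limma, 2 at an unadjusted p under 0.05, at a median of 0.08. The brightest, Sprr1b and Jup, read 0.16 (SE 0.67) and -0.01 (SE 0.25).

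For lists with a median near 0, single arrays set its sign. The median of immediate early genes was 0.20 without replicate 2 of mdx at day 7 and 0.10 without replicate 3 at day 14, against -0.08 with all arrays. Antigen presentation went to -0.02 without replicate 3 at day 7 and to -0.19 without the 3 arrays, chaperones to -0.03 without replicate 1 at day 14, and translation to -0.02 without replicate 3 at day 7. The nerve median was -0.09 without replicate 2 at day 14 and -0.29 without the less specific probe sets, and those of the epidermis, tendon and interferon lists also changed sign.

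**Figure D3:**
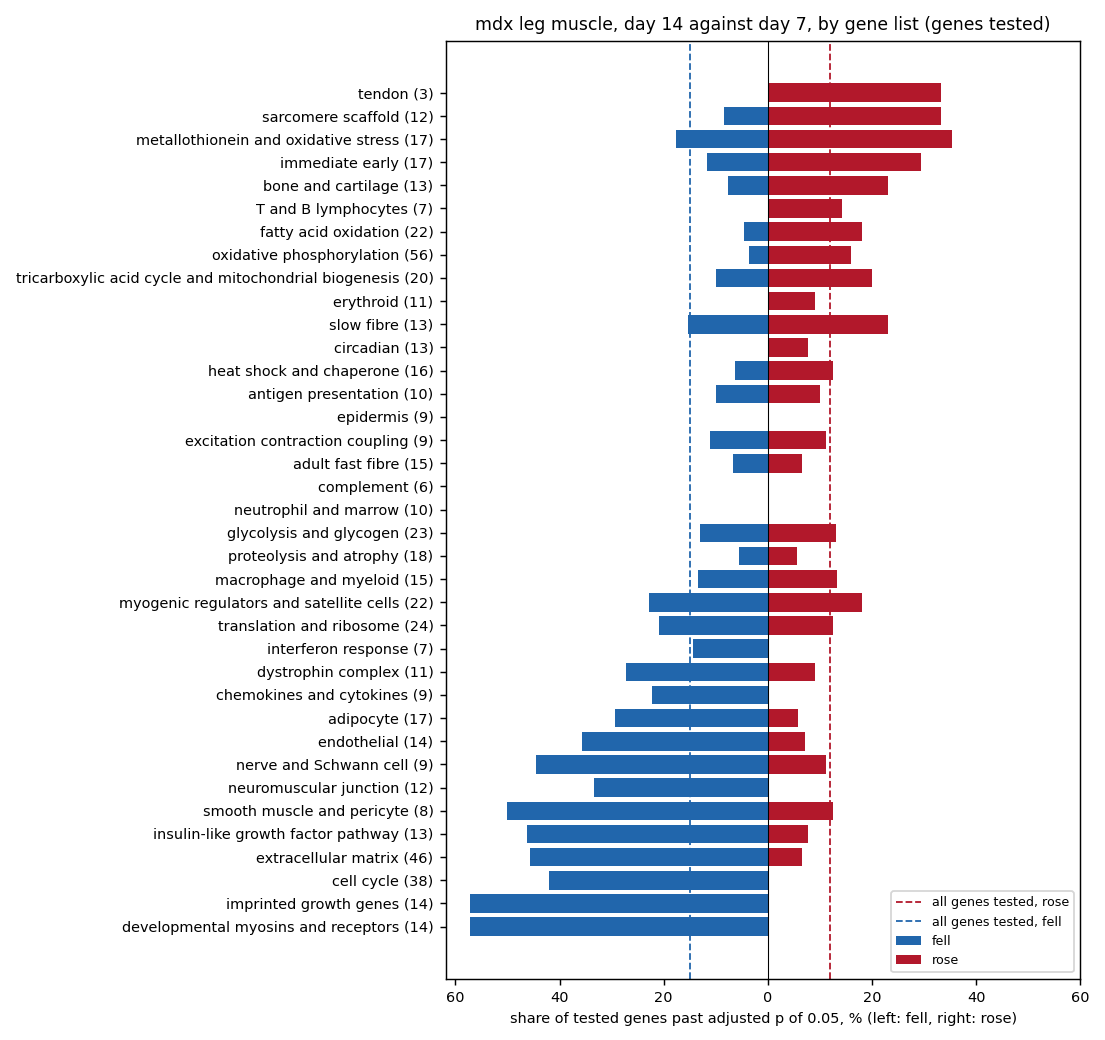
Share of the tested genes of each list that fell (bars to the left, %) or rose (bars to the right, %) in mdx muscle from day 7 to day 14 at a limma adjusted p of 0.05. The number of genes tested is in parentheses, and lists are ordered by the share that rose minus the share that fell. Dashed lines mark the shares over all 5466 genes, 15% fallen and 11.9% risen; developmental, imprinted, cell cycle and matrix lists reach past the left line.

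The 15 largest falls were on genes of varied kinds. H1f10, a linker histone, fell from 2029, 1690.1 and 1965 to 118, 55.2 and 161, a log2 change of -3.54 at SE 0.28 and limma adjusted p = 2.93e-05. Fzd2, a receptor for Wnt ligands, fell from 1678, 1135 and 1412 to 237, 51.0 and 56.4 (-3.19, SE 0.44), and Wnt4, one such ligand, from 1818, 1112 and 1598 to 144, 131 and 166 (-2.89, SE 0.24). For these genes the day 14 values were close to the dim end of the array. Others of this size were Plekho1, an adaptor that binds a capping protein (-3.02, SE 0.24) and Col18a1, the source of endostatin (-2.98, SE 0.25). Plekho1 fell on 3 probe sets and Col18a1 on 2 of 3, with the brightest at 0.18 (SE 0.17).

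Fgfr4, Myh8 and Igfbp3, described above, were also among the 15 largest falls, with Commd5 (-2.79, SE 0.27), Ccdc86 (-2.68, SE 0.34), Ppp2r5d (-2.66, SE 0.25), Vps37b (-2.52, SE 0.31), Urm1 (-2.51, SE 0.28), Gpaa1 (-2.51, SE 0.36) and Htra2 (-2.45, SE 0.27), a mitochondrial protease. A second probe set of Gpaa1 fell, and one of Htra2 rose from 5064 ± 1456 to 12069 ± 1313 (1.27, SE 0.29).

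The largest rises were on probe sets that were mostly dim at day 7. After Meg3 they were Adh7, an alcohol dehydrogenase, from 486, 259 and 599 to 3290.2, 1965 and 3475 (2.56, SE 0.48), and Ctsb, cathepsin B, from 31.8, 275 and 176 to 1079, 894 and 1139.8 (2.48, SE 0.42). The brightest Ctsb probe set read 11054 and 11678 and did not pass. Ckm rose on a dim probe set, from 117, 115 and 70.6 to 936, 676 and 479.7 (2.19, SE 0.36), but not on its bright one (0.18, SE 0.28).

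Pigr, the receptor that carries immunoglobulin across epithelia, rose from 1433, 2052 and 1771 to 9313, 7326 and 6574 (2.10, SE 0.21), and Ckmt2, the mitochondrial creatine kinase, from 2202, 2672 and 2322 to 13507, 10217 and 8053 (2.09, SE 0.23), with its brighter probe set at 0.43 (SE 0.16) and not passed. The others were H2-T18 (2.40, SE 0.67), Sac3d1 (2.39, SE 0.70), Chst3 (2.24, SE 0.32), Prss29 (2.23, SE 0.53), Agap1 (2.22, SE 0.27), S100a14 (2.15, SE 0.25), Coro2b (2.12, SE 0.43), Tbc1d10a (2.05, SE 0.50) and Cd151 (2.04, SE 0.50). Of these 15 rises 9 were on probe sets marked f, r or i by the array maker (sequence family, relaxed probe rules or incomplete set), against 1 of the 15 largest falls.

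Over all tested probe sets, 268 of 1018 marked f, r or i rose (26.3%) and 52 fell (5.11%), while 628 of 6122 others rose (10.3%) and 960 fell (15.7%). Among 862 genes with at least 2 tested probe sets, 102 had at least 2 that passed. Of these 102, 40 fell on all, 25 rose on all and 37 went in opposite directions, among them Meg3, Igf1, Myl4, Peg3, Bgn, Capzb, Mbp and Htra2. In those 37 genes, 27 of the 38 rising probe sets and 2 of the 37 falling ones carried such a mark. The part of probe design in these opposite calls was not tested.

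Control muscle shows the change with age beside that of mdx, and most probe sets that passed in mdx passed there in the same direction. There 3408 of 7140 probe sets passed (47.7%), 1500 of which rose (21%) and 1908 fell (26.7%). Both genotypes rose for 719 probe sets and fell for 880, and 3 passed in opposite directions. The log2 differences of mdx and control correlated at r = 0.827 across probe sets, which share the normalisation and are not independent replicates. The difference between the changes was itself tested, and 1 of 7140 probe sets passed (0.014%), with 678 at an unadjusted p under 0.05 (9.5%). A larger number of calls in control does not itself show that the changes differ.

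Snx17, a sorting nexin of endosomes, was the probe set that passed. In mdx it read 1886, 1904 and 1646 at day 7 and 1273, 1056 and 1371 at day 14 (-0.54, SE 0.17), and in control 2133, 1747 and 2061 and then 209, 277 and 267 (-2.71, SE 0.17), a difference of 2.17 (SE 0.24, limma adjusted p = 0.00618). The control day 14 arrays stood below all others. The call was lost without replicate 1 of control at day 7 (2.12, limma adjusted p = 0.0555) and without the 3 arrays with low bright probe sets (2.16, limma adjusted p = 0.63). For Myh3 the difference did not pass. It fell in control from 5964, 5317 and 6987 to 442, 468 and 431, all below the mdx values at day 14, and the difference was 1.42 (SE 0.22, limma adjusted p = 0.098). Myh8 differed by 0.77 (SE 0.49, limma adjusted p = 0.625).

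Other large differences with an unadjusted p under 0.001 did not pass the adjustment. They included Gadd45b at 2.41 (limma adjusted p = 0.104) and B3gnt2 at 2.39 (limma adjusted p = 0.294) where the change was more positive in mdx. More negative in mdx were Lrp5, a Wnt co-receptor, at -2.71 (limma adjusted p = 0.294), Ttc39b at -2.34 (limma adjusted p = 0.231) and Akap1 at -1.15 (limma adjusted p = 0.294). Mt1 and Mt2, the metallothioneins, were looked at after their values were seen. Mt2 rose in mdx and fell in control from 5959.7, 7993 and 7366 to 5902, 4098 and 4102, a difference of 1.26 (SE 0.26, limma adjusted p = 0.25), and Mt1 gave 1.47 (SE 0.25, limma adjusted p = 0.104).

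**Figure D4:**
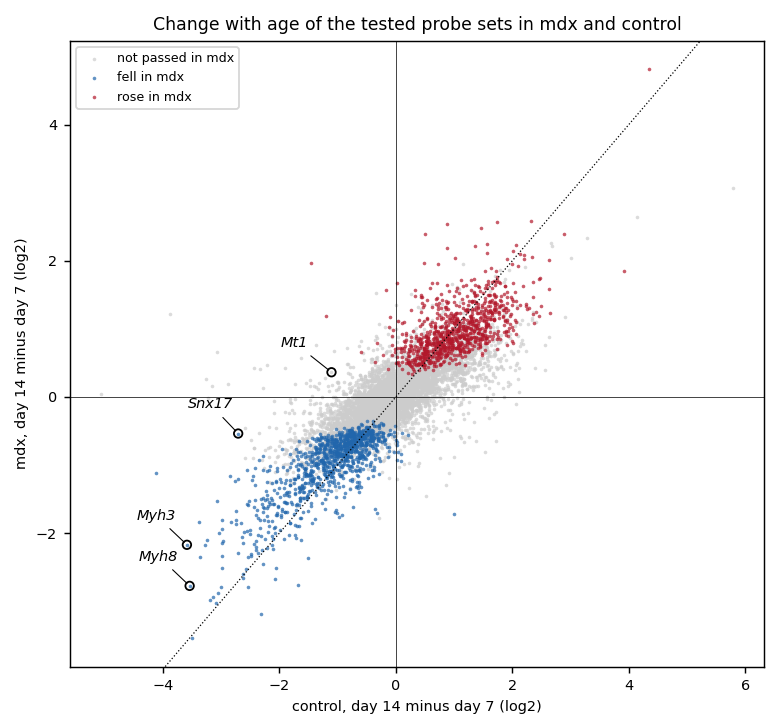
Log2 difference of day 14 minus day 7 in mdx (vertical axis) against the same in control (horizontal axis) for 7140 probe sets, coloured by whether the probe set rose or fell in mdx. The dotted line marks equal change; most coloured points lie in the quadrants where both genotypes changed the same way, and Snx17, Myh3, Myh8 and Mt1 are ringed.

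The single control array at day 23 shows which day 14 levels were also met later. On the log2 scale it lay nearer the control mean at day 7 than at day 14 for 1200 of the 1908 probe sets that changed in mdx (62.9%), and for 61.5% of all tested. It lay nearer day 14 for 43.0% of the probe sets that fell (435 of 1012) and 30.5% of those that rose (273 of 896). Among list genes that fell in mdx it lay nearer day 14 for 7 of 8 developmental, 7 of 8 imprinted, 14 of 16 cell cycle, 17 of 21 matrix and 4 of 4 nerve genes, and for 0 of 4 smooth muscle genes. Myh3 read 928, Myh8 1009.9, Dlk1 2028 and Chrna1 1904 at day 23. The control day 14 arrays read 442, 468 and 431 for Myh3, 1861, 4727 and 4378 for Myh8, 3987, 6644 and 7475 for Dlk1 and 1680.3, 1017 and 2925 for Chrna1, so Myh8 and Dlk1 were lower still at day 23 and Myh3 was higher. Wnt4 read 1641 and Plekho1 1715 at day 23, within or above their control day 7 values. No mdx array at day 23 was part of the comparison, and 1 array gives no error.

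**Figure D5:**
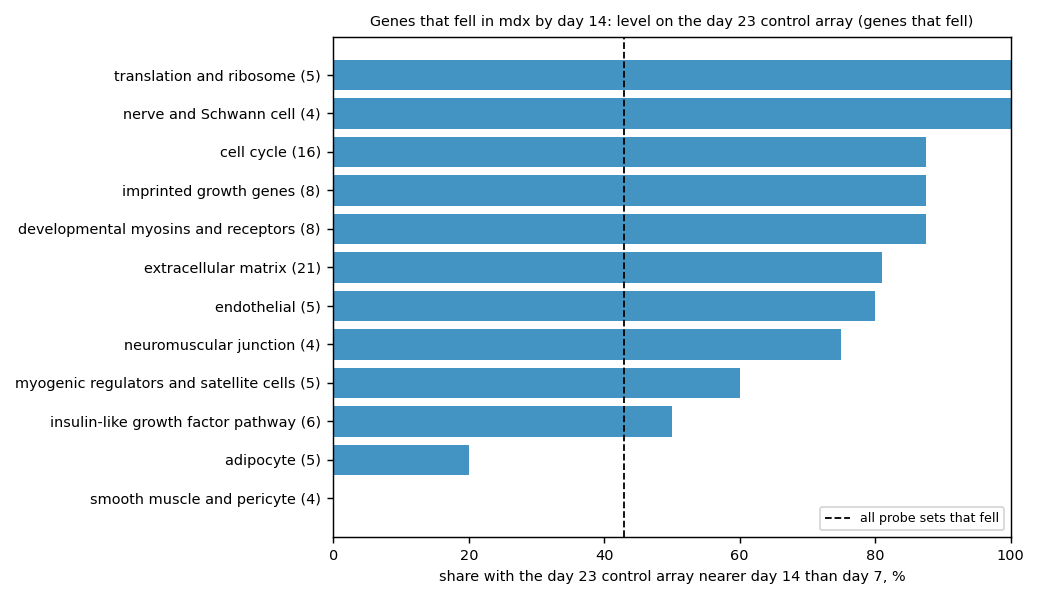
Share (%) of the genes that fell in mdx by day 14, in each list with at least 4 such genes (number in parentheses), for which the single day 23 control array lay nearer the control day 14 mean than the day 7 mean. The dashed line marks 43.0%, the share over all probe sets that fell; translation, nerve, cell cycle, imprinted, developmental and matrix lists lie above it, and adipocyte and smooth muscle lists below.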

How the data were processed

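Leg muscle RNA of 13 arrays was read with one Affymetrix design following the array maker's standard protocol, per the labels. The values as deposited by the authors are linear intensities, 1 per probe set and array. Their trimmed means are equal between arrays, and array medians span 1.47-fold; the sources used here do not give the summarisation software. Of 12488 probe sets, 66 controls were left out and the other 12422 quantile normalised over the 13 arrays. The test used log2(intensity + 62.1), the pseudocount being 10% of the median, so changes of dim probe sets are understated. Probe sets above 621 on at least 3 of 12 replicated arrays were kept. limma 3.58.1 in R 4.3.3 fitted 4 groups of 3 arrays with an intensity trend, 8 residual degrees of freedom and Benjamini-Hochberg adjustment over all 7140 probe sets, called at 0.05. The number of arrays limits the precision. The fit was tested on simulated data.

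Symbols come from the platform annotation, updated through gene identifiers. A single symbol was given for 10833 probe sets, several for 396 and none for 1193. A gene in a list is represented by its brightest probe set. Members and lists were chosen with earlier results of these data known. The text names the 15 largest rises and falls, up to 4 per list and direction (2 brightest where none or few passed), the myosins and Dmd, and up to 5 differences between genotypes per direction with an unadjusted p under 0.001. All 8 falling members of the developmental and imprinted lists, defining cell type markers and a few others (Col1a1, Igf2, Id3, Mt1 and Cdkn1c among them) were named after their values were seen. Promoters are RefSeq's on GRCm38.p6. Other settings were tried for scaling, the filter, pseudocount and threshold, the variance model, a replicate block and the probe set per gene, and each array was left out in turn.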

Additional observations from a re-analysis of the deposited data

Results flagged for a closer look

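Snx17 stood out because its change with age differed between the genotypes in a test of the difference itself: the mdx change exceeded the control change by 2.17 on the log2 scale (SE 0.24, limma adjusted p = 0.00618). The 3 mdx arrays at day 14 lay between 1056 and 1371 and the 3 control arrays between 209 and 277. A second Snx17 probe set had a difference of -0.50 (limma adjusted p = 0.784), and the control array at day 23 read 1869.9 on the first. With the same size of difference, the call was lost without control day 7 replicate 1 (2.12, limma adjusted p = 0.0555), without the 3 arrays with low bright probe sets (2.16, limma adjusted p = 0.63) and with the replicate block (limma adjusted p = 0.279). The cause was not tested.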

How the results depend on the processing

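The alternatives were run on 171 named probe sets, all of which passed in mdx except Dmd, and 0 changed sign. Named probe sets that did not pass, Myh4 among them, were not checked for sign. Medians of lists near 0 did change sign, as given beside them. The number of mdx probe sets called ranged from 1001 (without mdx day 7 replicate 1) to 2629 (without control day 14 replicate 2) when single arrays were left out. It was 892 without the 3 arrays with low bright probe sets, which were chosen after the values were seen, and 783 at an adjusted p of 0.01. Calls in control fell to 1904 with the filter at the 75th percentile and to 2090 at an adjusted p of 0.01. List genes called went from 182 to between 109 (without mdx day 7 replicate 1) and 166 (without mdx day 14 replicate 1) when single mdx arrays were left out. The share of called probe sets with the day 23 array nearer day 7 was 68.6% with arrays scaled to the same median. Single-array omissions gave 0 (without control day 7 replicate 1) to 14 (without control day 14 replicate 1) differences between genotypes by limma, and 476 to 1041 at an unadjusted p under 0.05. There were 2 with no variance trend, 6 without mdx day 7 replicate 2, 2 without control day 14 replicate 2 and 4 without control day 14 replicate 3. Without the 3 arrays there were 0 by limma, 340 at an unadjusted p under 0.05, with Snx17 at 2.16. Of 171 named probe sets, 86 lost no call under any alternative run on them. These 86 include Dmd, which had not passed and so had no call to lose. The causes were not tested beyond fewer arrays. Dim probe sets near the filter level limit what can be read of low genes.

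Same-numbered mdx arrays of both ages did not deviate together (r between -0.076 and 0.010). Whether the numbers pair the arrays cannot be decided from these values, because each group holds few arrays and the labels do not say. With the replicate block, 1490 mdx probe sets and 0 differences were called by limma, the latter with 563 at an unadjusted p under 0.05 and Snx17 at 2.17 (adjusted p = 0.279).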
